A study of Homo sapiens with 12 samples.

Results

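Aminoacyl-tRNA synthetases are the enzymes that load each amino acid onto its tRNA before translation. The 36 genes described here, of 26485 listed in each of the deposited comparison tables, were taken by symbol from a list of the synthetases, and all 36 were found in all 6 tables. They comprise 20 genes for enzymes that work in the cytosol (AARS, CARS, DARS, EPRS, FARSA, FARSB, GARS, HARS, IARS, KARS, LARS, MARS, NARS, QARS, RARS, SARS, TARS, VARS, WARS and YARS) and 16 for enzymes that work in the mitochondrion (AARS2, CARS2, EARS2, FARS2, HARS2, IARS2, LARS2, MARS2, NARS2, PARS2, RARS2, SARS2, TARS2, VARS2, WARS2 and YARS2). The symbols follow the tables, and WARS, for example, is called WARS1 in current annotation. The RNA came from HT-29, an established human colon adenocarcinoma line that is widely used to study necroptosis, a lytic form of cell death that runs through the kinases RIPK1 and RIPK3 and the membrane-disrupting protein MLKL. All cells were harvested after 8 h. The control group received DMSO, the solvent, and a second group received TNFα at 10 ng/ml. The TSZ group received TNFα at 10 ng/ml, the Smac mimetic SM-164 at 50 nM, which removes the brake that IAP proteins place on cell death, and the pan-caspase inhibitor zVAD at 20 μM, a mixture that drives these cells into necroptosis. The TSZ+Nec-1s group received the same mixture with 10 μM Nec-1s, an inhibitor of the kinase RIPK1. Each group held 3 mRNA libraries, 12 in all.

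Nuclear genes encode both sets of enzymes. Most cytosolic enzymes charge tRNAs for the bulk of protein synthesis, and 8 of them, EPRS, IARS, LARS, MARS, QARS, KARS, RARS and DARS, sit in a large complex held together by the scaffold proteins AIMP1, AIMP2 and EEF1E1. The mitochondrial enzymes charge the tRNAs that translate the few proteins encoded by mitochondrial DNA. GARS and KARS each supply both compartments from a single gene, and EPRS joins the activities for glutamic acid and proline in a single protein. Phenylalanine is loaded in the cytosol by an enzyme built from the subunits FARSA and FARSB, and in mitochondria by the single chain of FARS2. Several cytosolic synthetase genes are known targets of ATF4, the transcription factor of the amino acid and stress response, and WARS is a long-known interferon-inducible gene.

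The tables give only the mean of scaled read counts of a group. Each mean is a sum of 3 whole numbers of reads divided by library scale factors, so the reads of single libraries could be solved back, for 15617 to 15819 genes in a group and for all 36 synthetases in every library. The libraries of a group are called a, b and c here by the size of their scale factor. These letters match no replicate number and pair no libraries between groups. The libraries were estimated to hold 8897157 to 12726325 reads, and a synthetase had between 24 reads (PARS2) and 5096 reads (TARS) in a library. All levels below are scaled reads, given for libraries a, b and c in that order, and every level is relative to the other mRNAs of the same library. In such bulk RNA fewer cells and less RNA per cell cannot be told apart. Whether the libraries of 1 group were grown as separate cultures is not stated, and the spread behind each p-value may therefore be technical. In DMSO, TNFα and TSZ the libraries deviated from the mean of their group in step with the GC content of the genes (Spearman's rho across genes from -0.79 to 0.76, -0.59 to 0.47 and -0.74 to 0.58), against -0.14 to 0.22 in TSZ+Nec-1s. Deviations from a group's mean balance out, so a library that stands apart gives the others of its group the opposite sign, and the strongest in each group (DMSO b, TNFα a and TSZ a, all negative) are the ones left out below as GC-deviating. The longest transcripts of the cytosolic and of the mitochondrial members did not differ much in median GC content, at 48.9% and 49.8%. Single members ranged from 37.9% to 61.7% (cytosolic) and from 38.2% to 61.4% (mitochondrial). Of 10 markers of colon epithelium 6 (EPCAM, CDH1, KRT19, KRT20, VIL1 and LGALS4) had means above 100 in all 4 groups, KRT8 and KRT18 were too abundant to be solved, and the intestinal regulators CDX1 and CDX2 had means of at most 6.77. The leukocyte markers PTPRC and CD3E and the endothelial marker CDH5 were at 0 in all 12 libraries. The sum of the 5 solved leukocyte markers was 236, 223, 563 and 189 in DMSO, TNFα, TSZ and TSZ+Nec-1s, of which CD68 made up most in TSZ. The sum of the 6 fibroblast and endothelial markers was 96.7, 48.3, 252 and 45.7, and the part of these shifts in the results was not tested.

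The stretches in front of these genes hold short sequences that transcription factors are known to recognise, and 7 of them are shown here for members on which the results turn. The 250 bases before each RefSeq start (GRCh38.p14) were searched on both strands for 30 members, 16 cytosolic and 14 mitochondrial. AARS2, DARS, LARS, VARS, VARS2 and YARS were not searched. The element bound by ATF4 with C/EBP partners was spelled TGATGCAA in a strict form, which 0.772% of 35116 promoters held, and TGATGNAA in a relaxed form that includes the strict one, which 3.14% held. The interferon-stimulated response element was searched as GAAA, any 2 bases and GAAA again (3.02% of promoters), and the NRF1 site by its palindromic consensus, as in the capitals of MARS2 below (1.03%). The last pair and the ETS site CCGGAAGT (3.42%) were chosen after the values had been seen. These shares are of single promoters, whereas a member counts below if any of its starts held the match. Counted in that way over 27305 genes, the shares were 0.967% (strict ATF4), 3.89% (relaxed ATF4), 3.71% (interferon), 1.28% (NRF1) and 4.13% (ETS). The strict ATF4 form was found before 2 of 16 cytosolic members, AARS and IARS, and before none of the 14 mitochondrial members, and the relaxed form also before GARS and YARS2. The NRF1 site was found before MARS2, the interferon element before EARS2 and before the downstream one of 2 starts of WARS, and the ETS site before 5 cytosolic members (CARS, HARS, NARS, TARS and WARS) and 3 mitochondrial members (EARS2, HARS2 and PARS2), where HARS and HARS2 share a single stretch read in opposite directions. Each line gives the gene's own strand from 5′ to 3′, with the matched letters, or their reverse complement, in capitals and up to 10 bases on either side. A match is a description of these letters and not evidence of binding.
AARS, ATF4 element (chr16:70289676-70289703, minus strand): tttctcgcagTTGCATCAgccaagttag
IARS, ATF4 element (chr9:92293698-92293720, minus strand): tttcagcgcgTTGCATCAcctcc
GARS, relaxed ATF4 element (chr7:30594835-30594862, plus strand): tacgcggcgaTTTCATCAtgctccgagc
YARS2, relaxed ATF4 element (chr12:32756077-32756104, minus strand): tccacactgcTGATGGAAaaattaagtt
WARS, interferon element (chr14:100375383-100375412, minus strand): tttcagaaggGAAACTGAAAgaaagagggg
EARS2, interferon element (chr16:23557554-23557583, minus strand): cctgccacgcTTTCGCTTTCccaagctgaa
MARS2, NRF1 site (chr2:197705332-197705361, plus strand): cgacccggctGCGCATGCGCctctcacacg

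In cells given only the solvent, mRNAs of cytosolic enzymes were the more abundant ones. Per kilobase of the canonical transcript, the median level of the 20 cytosolic genes in DMSO was 686 scaled reads and that of the 16 mitochondrial genes 151. KARS, the lysine enzyme of both compartments, led the order at 1966 ± 230.0 (SD, n = 3) scaled reads per kilobase. It was followed by YARS, for tyrosine, at 1317 ± 162 and TARS, for threonine, at 1277 ± 89.5, which differed from each other by less than their SDs. By this length PARS2, for mitochondrial proline, closed the order at 44.7 ± 10.1, below WARS2, for mitochondrial tryptophan, at 67.9 ± 7.86. The classes overlapped in the middle of the order, since IARS2, the isoleucine enzyme of mitochondria (396 ± 62.9), lay above the cytosolic genes LARS (375 ± 49.6), CARS (330.5 ± 54.9), DARS (184 ± 32.1) and FARSB (143 ± 12.8), of which LARS and CARS lay within the SD of IARS2 or close to it. The order depends on the length used. With all annotated exons merged, KARS (966) and TARS (801.5) led, YARS stood at 329, and NARS2 (22.4), RARS2 (26.3), LARS2 (39.8), VARS2 (41.9) and, between the last pair, FARS2 lay below PARS2 (44.7).

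Added up per library, without correction for length, the 20 cytosolic genes gave 41367, 39124 and 41417 scaled reads in DMSO, and 43301, 43943 and 44502 in TSZ. The 16 mitochondrial genes gave 8445, 7864 and 8268 in DMSO, and 6104, 6248 and 5987 in TSZ. The mitochondrial sum was thus lower in every TSZ library than in any DMSO library. The cytosolic sum was higher than in any DMSO library in every treated library, with 43297, 43835 and 42930 in TNFα and 43654, 44484 and 44597 in TSZ+Nec-1s. In TSZ the cytosolic direction rests on the scale. Per 1000000 of the estimated total reads the cytosolic sum was 4184 to 4325 in DMSO and 3451 to 3476 in TSZ, and the mitochondrial sum 841 to 883 and 468 to 491. On that scale the cytosolic sum was 4300 to 4384 in TNFα and 4338 to 4453 in TSZ+Nec-1s. The mitochondrial sum per 1000000 reads was 799.5 to 820 in TNFα and 791 to 794 in TSZ+Nec-1s. Each of these libraries was below every DMSO library on that scale, whereas in scaled reads the TNFα and TSZ+Nec-1s libraries overlapped the DMSO range. In TNFα the mitochondrial sum was 8115 ± 194 (SD, n = 3) and in TSZ+Nec-1s 7958 ± 30.5, next to 8192 ± 298 in DMSO and 6113 ± 131 in TSZ.

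**Figure D1:**
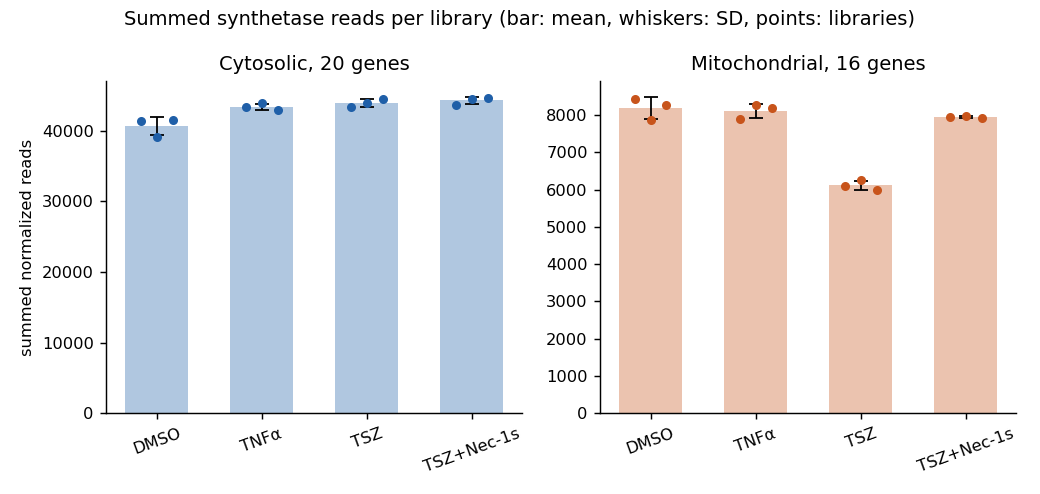
Summed scaled reads of the 20 cytosolic (left) and 16 mitochondrial (right) synthetase genes in the 4 groups, as bars for the mean, whiskers for the SD of 3 libraries and points for single libraries, on axes that start at 0. The mitochondrial sum was 6113 in TSZ against 7958 to 8192 in the other groups.

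Between TSZ and DMSO most mitochondrial synthetases fell. Of the 16, 12 were lower, 1 was higher and 3 did not pass the test (limma, Benjamini-Hochberg adjusted p under 0.05), against 24.3% of all 11664 genes tested that were lower and 25.6% that were higher. The median log2 fold change of the 16 was -0.50, next to -0.02 over all genes tested. PARS2, the proline enzyme of mitochondria, was read at 127, 79.9 and 109 in DMSO and at 26.6, 58.7 and 35.7 in TSZ. All TSZ libraries lay below all DMSO libraries, with a log2 fold change of -1.43 ± 0.27 (SE, adjusted p = 7.6e-04), a 2.7-fold fall in the least abundant member. MARS2, which charges the mitochondrial tRNA for methionine, was read at 449, 537 and 421 in DMSO and 214, 245 and 212 in TSZ. Its groups did not overlap and the log2 fold change was -1.06 ± 0.13 (SE, adjusted p = 1.5e-05). AARS2, for mitochondrial alanine, was read at 683, 523 and 673 in DMSO and 269.6, 387 and 299.9 in TSZ, with a log2 fold change of -0.98 ± 0.15 (SE, adjusted p = 1.2e-04). TARS2, for mitochondrial threonine, went from 365, 303 and 389 to 144, 203 and 192, with a log2 fold change of -0.98 ± 0.15 (SE, adjusted p = 1.5e-04). In both genes even the highest TSZ library was well below the lowest DMSO library. EARS2 loads glutamic acid in mitochondria and also supplies the precursor of glutaminyl-tRNA there. It was read at 1141, 969 and 1121 in DMSO and 564, 635 and 549.8 in TSZ, with a log2 fold change of -0.88 ± 0.10 (SE, adjusted p = 9.0e-06). FARS2, for mitochondrial phenylalanine, went from 204, 159.8 and 217 to 123, 125 and 111, with a log2 fold change of -0.68 ± 0.15 (SE, adjusted p = 0.0022). LARS2, for mitochondrial leucine, went from 512, 445 and 524 to 311, 316 and 359, with a log2 fold change of -0.59 ± 0.12 (SE, adjusted p = 0.0014). For these 3 genes too the TSZ libraries all lay below the DMSO libraries.

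The remaining called members of the mitochondrial class fell by less. VARS2 (valine) had a log2 fold change of -0.51, NARS2 (asparagine) of -0.49, CARS2 (cysteine) of -0.42, HARS2 (histidine) of -0.37 and RARS2 (arginine) of -0.31, each with a SE of 0.11 to 0.16. RARS2 was read at 474, 493 and 423 in DMSO and 410.5, 336 and 377 in TSZ. The calls of 8 of the 12 lower genes, PARS2, MARS2, AARS2, TARS2, EARS2, FARS2, LARS2 and NARS2, held whichever of the 12 libraries was left out. The calls of CARS2, HARS2, RARS2 and VARS2 were each lost without single libraries: CARS2 without DMSO a, DMSO c or TSZ a (adjusted p up to 0.072), HARS2 without DMSO a (0.067), RARS2 without DMSO a, DMSO b, TSZ b or TSZ c (up to 0.13) and VARS2 without DMSO c, TSZ a or TSZ b (up to 0.069, all limma). Of the exon bases of VARS2 and SARS2, 63.0% and 48.2% are also annotated to overlapping genes on the same strand, and HARS2 has a close relative in HARS, so these values are uncertain in how the reads were assigned. The members that did not pass in the main fit were IARS2 (-0.13 ± 0.13 SE, adjusted p = 0.43), SARS2, for serine (-0.34 ± 0.17 SE, adjusted p = 0.11), and YARS2, for tyrosine (0.19 ± 0.09 SE, adjusted p = 0.089). With each library's GC trend removed SARS2 passed as lower (-0.43, limma adjusted p = 0.0014) and YARS2 as higher (0.27, 0.0074). Without the GC-deviating libraries SARS2 also passed (-0.54, limma adjusted p = 1.1e-04). On the scale of total reads IARS2 (-0.54), SARS2 (-0.75) and YARS2 (-0.23) all passed as lower.

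WARS2, which loads tryptophan in mitochondria, was the 1 mitochondrial member called higher in TSZ than in DMSO in the main fit. YARS2 was also above 0 there but did not pass. WARS2 is described further here. It was read at 176, 214 and 177 in DMSO, 215, 209 and 188 in TNFα, 407, 325 and 334 in TSZ and 272, 218 and 239 in TSZ+Nec-1s. The 3 TSZ libraries were above the other 9, and the log2 fold change of TSZ against DMSO was 0.91 ± 0.14 (SE, adjusted p = 1.4e-04), a 1.88-fold rise. That call held without any single library, with values of 0.81 or more.

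**Figure D2:**
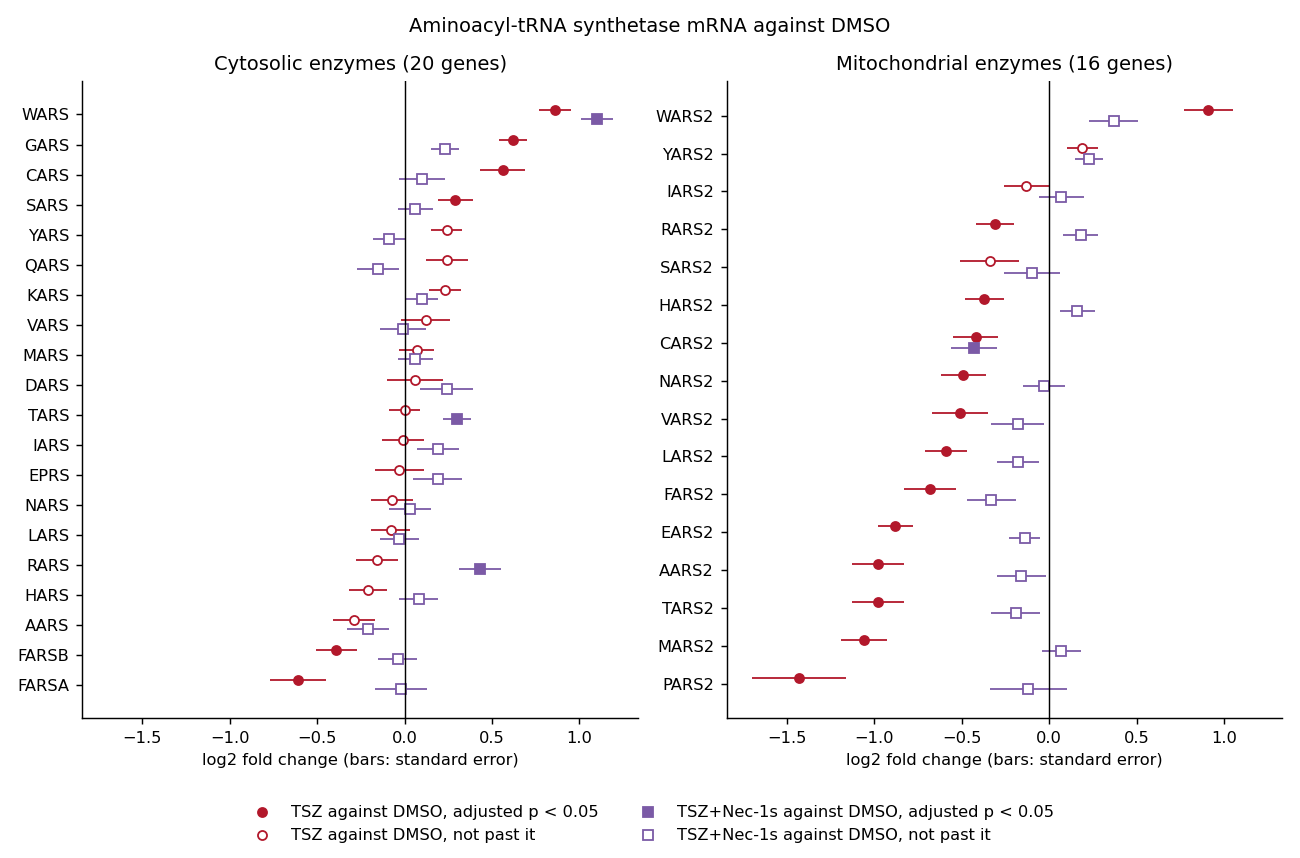
Log2 fold changes against DMSO of the 20 cytosolic (left) and 16 mitochondrial (right) members in TSZ (circles) and TSZ+Nec-1s (squares), with standard errors as bars, filled where the adjusted p was under 0.05. Of the mitochondrial members 14 lie below 0 in TSZ, with WARS2 at 0.91 and PARS2 at -1.43 as the extremes, whereas in TSZ+Nec-1s all 16 lie between -0.43 and 0.37.

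The cytosolic synthetases had no common direction in TSZ. Of the 20, 4 were higher than in DMSO, 2 were lower and 14 did not pass, which in both directions is a smaller share than among all genes tested (25.6% higher and 24.3% lower), and their median log2 fold change was 0.03. WARS, the cytosolic tryptophan enzyme, was read at 1396, 1218 and 1430 in DMSO and 2266, 2526 and 2550 in TSZ, with a log2 fold change of 0.86 ± 0.09 (SE, adjusted p = 6.2e-06). The groups were far apart, and WARS was the largest rise among the cytosolic members. GARS, the glycine enzyme of both compartments, was read at 2188, 2089 and 2263 in DMSO and 3401, 3405 and 3249 in TSZ, with a log2 fold change of 0.62 ± 0.08 (SE, adjusted p = 2.0e-05). CARS, for cysteine, was read at 980.5, 732 and 1002 in DMSO and 1229, 1411 and 1326 in TSZ, with a log2 fold change of 0.56 ± 0.13 (SE, adjusted p = 0.0026). In both genes each TSZ library was above each DMSO library. SARS, for serine, had a log2 fold change of 0.29 ± 0.10 (SE, adjusted p = 0.031), and this call was lost without DMSO b, TSZ b or TSZ c (adjusted p up to 0.1). The lower pair were the subunits of a single enzyme. FARSA, the catalytic subunit for phenylalanine, was read at 1472, 1015 and 1527 in DMSO and 729, 868 and 1010 in TSZ, with a log2 fold change of -0.61 ± 0.16 (SE, adjusted p = 0.0053). Its DMSO library b, the one left out as GC-deviating, was only just above the highest TSZ library. FARSB, its partner, was read at 928, 1066 and 906 in DMSO and 876, 646 and 706 in TSZ, with a log2 fold change of -0.39 ± 0.12 (SE, adjusted p = 0.014), which did not pass without TSZ b or TSZ c (adjusted p up to 0.074).

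Levels were scaled so that the typical gene did not move, and the choice of scale bears on these directions. Scaled to total reads, the median of all genes tested between TSZ and DMSO moved from -0.02 to -0.43, and then 2 cytosolic members were higher and 11 lower, and 1 mitochondrial member was higher and 15 lower. On that scale the class medians were -0.38 (cytosolic) and -0.91 (mitochondrial), WARS stood at 0.45, GARS at 0.21 and WARS2 at 0.50, CARS no longer passed at 0.14, and SARS turned to -0.13.

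**Figure D3:**
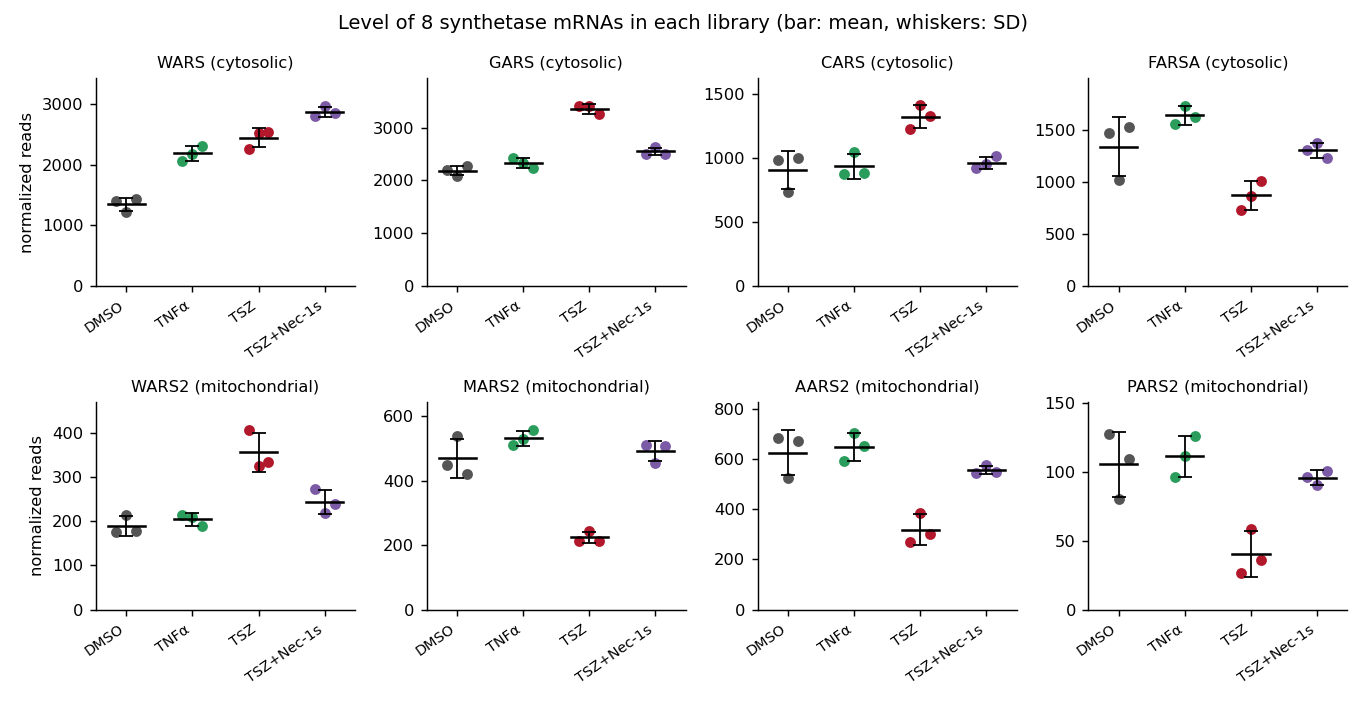
Scaled reads of 4 cytosolic (top) and 4 mitochondrial (bottom) synthetase genes in the 4 groups, with 1 point per library, a bar for the mean and whiskers for the SD, on axes that start at 0. WARS is above DMSO in all 3 treated groups, GARS, CARS and WARS2 are highest in TSZ, and FARSA, MARS2, AARS2 and PARS2 are lowest in TSZ.

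Enzymes for the same amino acid were next set side by side across the compartments. There are 17 such pairs here, in which EPRS is paired with both EARS2 and PARS2, and FARS2 with both FARSA and FARSB. Between TSZ and DMSO the log2 fold change of the cytosolic member was above that of the mitochondrial member in 16 of 17 pairs, the exception being WARS (0.86) with WARS2 (0.91). In TSZ+Nec-1s against DMSO it was so in 13 of 17 pairs and in TNFα against DMSO in 9. The pairs share their libraries and are not replicates, so this count is a description. MARS, the cytosolic methionine enzyme, was read at 2610, 2176 and 2705 in DMSO and 2315, 2682 and 2840 in TSZ, with a log2 fold change of 0.07 ± 0.10 (SE, adjusted p = 0.63) against -1.06 for MARS2. The exons of MARS overlap those of DDIT3 and ARHGAP9 on the other strand over 12.4% of their length in all, and reads were counted without regard to strand. AARS, for alanine, was read at 2414, 1871 and 2466 in DMSO and 1569, 2035 and 1908 in TSZ, with overlapping groups and a log2 fold change of -0.29 ± 0.12 (SE, adjusted p = 0.065), next to -0.98 for AARS2. TARS was read at 3331, 3681 and 3224 in DMSO and 3612, 3290 and 3318 in TSZ, with a log2 fold change of -0.00 ± 0.09 (SE, adjusted p = 0.99), next to -0.98 for TARS2. Neither cytosolic gene passed the test in the main fit. AARS passed as lower once each library's GC trend was removed (-0.22, limma adjusted p = 0.0075). It also did so without the GC-deviating libraries (-0.31, limma adjusted p = 4.2e-04). On the scale of total reads both AARS (-0.70) and TARS (-0.41) passed as lower. EPRS was read at 2201, 2616 and 1841 in DMSO and 2393, 1971 and 2128 in TSZ, with a log2 fold change of -0.03 ± 0.14 (SE, adjusted p = 0.89), next to -0.88 for EARS2 and -1.43 for PARS2. LARS, for leucine, was read at 1778, 2023 and 1551 in DMSO and 1866, 1655 and 1528 in TSZ, with a log2 fold change of -0.08 ± 0.11 (SE, adjusted p = 0.58), next to -0.59 for LARS2. The pair closest to equal change apart from WARS and WARS2 was YARS with YARS2, at 0.24 and 0.19, neither of which passed. In phenylalanine both compartments were lower, with FARSA at -0.61, FARSB at -0.39 and FARS2 at -0.68.

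**Figure D4:**
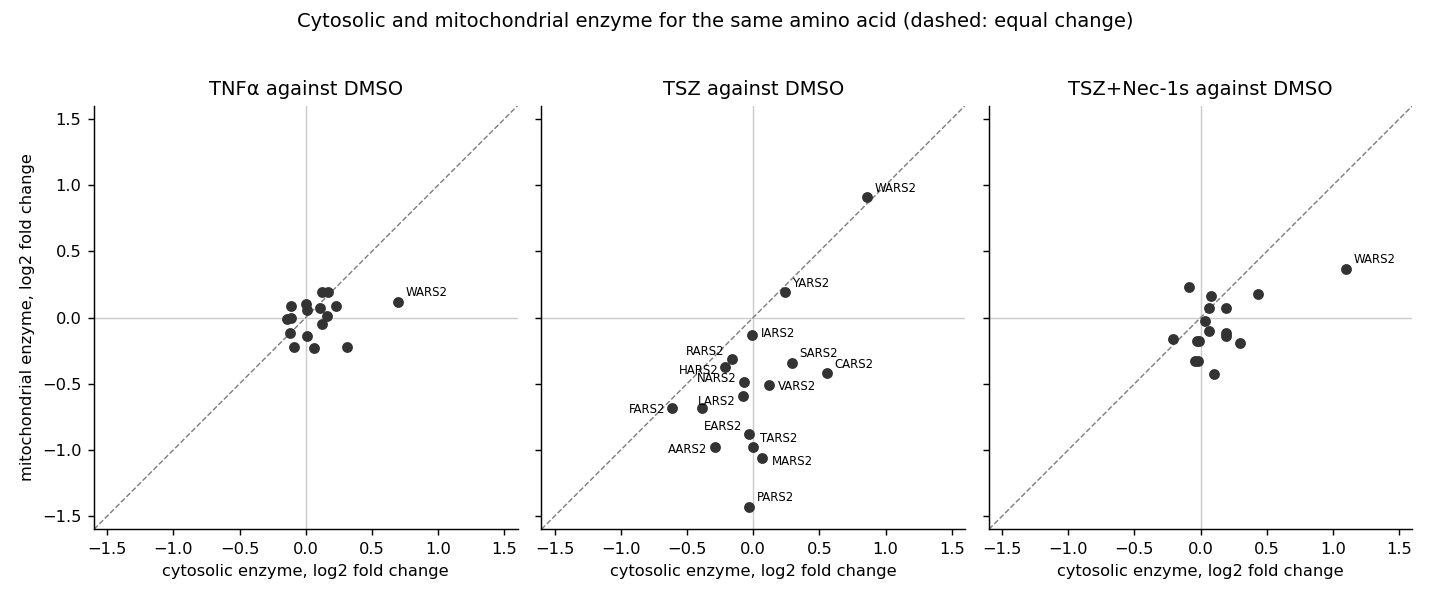
Log2 fold change of the cytosolic member (horizontal) against that of the mitochondrial member (vertical) for 17 pairs of enzymes for the same amino acid, in TNFα, TSZ and TSZ+Nec-1s against DMSO, with a dashed line at equal change. In TSZ 16 of 17 points lie below the line, FARS2 being plotted against both FARSA and FARSB, while 13 do in TSZ+Nec-1s and 9 in TNFα.

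TNFα alone was compared with DMSO to see which synthetases follow the cytokine itself. Of the 36 members 1 was called, WARS, against 3.04% of all genes tested that were higher and 1.08% that were lower. WARS was read at 2068, 2186 and 2320 in TNFα, above every DMSO library (1396, 1218 and 1430), with a log2 fold change of 0.70 ± 0.09 (SE, adjusted p = 4.8e-04), and the call held without any single library (0.63 to 0.75). None of the 16 mitochondrial members was called by limma in the main fit, nor was any under 0.05 before adjustment. Once each library's GC trend was removed CARS2 passed as lower (-0.29, limma adjusted p = 0.016). Without the GC-deviating libraries MARS2 passed as higher (0.31, limma adjusted p = 0.047). The log2 fold changes of the other 35 lay between -0.23 and 0.31, and class medians were 0.07 (cytosolic) and 0.03 (mitochondrial). MARS2 in TNFα was read at 509, 527 and 556, AARS2 at 592, 705 and 652 and PARS2 at 96.2, 112 and 126, which overlapped with DMSO in each case. When 1 library was left out the count of all genes called, 481, went to 286 to 586, and it fell under 300 without DMSO a, TNFα b or TNFα c (293, 294 and 286).

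TSZ was then compared with TNFα, so that both groups had received the cytokine. The mitochondrial members were lower in 10 cases and higher in 1, and the cytosolic members were higher in 2 and lower in 2, with 21.7% of all genes tested lower and 22.4% higher. Class medians were 0.03 (cytosolic) and -0.46 (mitochondrial). The lower mitochondrial members were PARS2 (-1.52), MARS2 (-1.25), TARS2 (-1.17), AARS2 (-1.04), EARS2 (-0.88), LARS2 (-0.57), VARS2 (-0.51), HARS2 (-0.46), FARS2 (-0.46) and NARS2 (-0.37), and 3 of these calls were lost without single libraries. VARS2 did not pass without TNFα b, TSZ a or TSZ b (adjusted p up to 0.079), FARS2 not without TNFα b, TNFα c or TSZ c (up to 0.086), and NARS2 not without any TNFα library, TSZ c, TSZ+Nec-1s a or TSZ+Nec-1s b (up to 0.16). FARSA, read at 1556, 1730 and 1627 in TNFα, had a log2 fold change of -0.93 ± 0.15 (SE, adjusted p = 3.3e-04), and HARS, for histidine, of -0.44 ± 0.11 (SE, adjusted p = 0.0073). GARS (0.53 ± 0.08 SE, adjusted p = 1.0e-04) and CARS (0.50 ± 0.13 SE, adjusted p = 0.0056) were higher, but neither call held throughout. GARS did not pass once each library's GC trend was removed (0.38, limma adjusted p = 0.11), and CARS, at 0.16, did not pass on the scale of total reads. WARS differed little between TSZ and TNFα, with a log2 fold change of 0.16 ± 0.09 (SE, adjusted p = 0.17) that turned to -0.18 on the scale of total reads. Without DMSO b, 23 members were called rather than 15. The comparisons of TSZ with DMSO, TNFα and TSZ+Nec-1s share the TSZ libraries, so the recurrence of a gene in them is not independent.

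Nec-1s, added to TSZ, was used to ask which changes need the kinase activity of RIPK1. Between TSZ+Nec-1s and DMSO 4 of 36 members were called, WARS, RARS and TARS higher and CARS2 lower, against 7.06% of all genes tested that were higher and 5.77% that were lower. The class medians were 0.07 (cytosolic) and -0.11 (mitochondrial). WARS was read at 2816, 2975 and 2857, the highest level of any group, with a log2 fold change of 1.10 ± 0.09 (SE, adjusted p = 3.6e-06), which held without any single library. RARS, the cytosolic arginine enzyme, was read at 1005, 1155 and 925 in DMSO, 1245, 1099 and 1013 in TNFα, 1068, 825 and 878 in TSZ and 1347, 1397 and 1402 in TSZ+Nec-1s. The TSZ+Nec-1s libraries were above the other 9, and the log2 fold change against DMSO was 0.43 ± 0.12 (SE, adjusted p = 0.029). TARS, at 4030, 4127 and 4404 in TSZ+Nec-1s, had a log2 fold change of 0.30 ± 0.08 (SE, adjusted p = 0.034) and CARS2 of -0.43 ± 0.13 (SE, adjusted p = 0.044). The calls of RARS, TARS and CARS2 were each lost without DMSO a, DMSO c or any TSZ+Nec-1s library, that of TARS also without TNFα c and that of CARS2 also without TNFα b, TNFα c, TSZ b or TSZ c (adjusted p up to 0.11, 0.15 and 0.15). The number of members called was 9 without DMSO b, 2 without TNFα c, 1 without DMSO a, DMSO c or any TSZ+Nec-1s library, and 23 without the 3 GC-deviating libraries. A p over the threshold does not show that the other members were at the same level in TSZ+Nec-1s and DMSO.

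Set directly against TSZ+Nec-1s, TSZ again had the lower mitochondrial synthetases. Of the 16, 9 were lower and 1 was higher in TSZ, against 19.9% and 22.2% of all genes tested, with a class median of -0.44. MARS2 was read at 510.0, 456 and 507 in TSZ+Nec-1s against 214, 245 and 212 in TSZ, with a log2 fold change of -1.13 ± 0.12 (SE, adjusted p = 1.2e-05). PARS2 was read at 96.5, 90.3 and 101 in TSZ+Nec-1s, with a log2 fold change of -1.31 ± 0.27 (SE, adjusted p = 0.002), and AARS2 at 545, 576 and 548, with a log2 fold change of -0.82 ± 0.15 (SE, adjusted p = 7.7e-04). In these genes the TSZ+Nec-1s libraries lay within the range of those of DMSO and above all those of TSZ. That range took them in only through the GC-deviating DMSO b, the lowest DMSO library for PARS2 and AARS2 and the highest for MARS2. Without the GC-deviating libraries 7 mitochondrial members were lower and 4 higher in TSZ+Nec-1s than in DMSO. Of all genes tested 2695 were lower and 3135 higher there. The lower members included AARS2 (-0.29, limma adjusted p = 0.0083), TARS2 (-0.30, 0.017), EARS2 (-0.21, 0.016) and LARS2 (-0.25, 0.026). The others were FARS2 (-0.45, 0.0041), SARS2 (-0.32, 0.0041) and CARS2 (-0.54, 7.9e-06). PARS2 (-0.31, adjusted p = 0.13) and MARS2 (0.17, adjusted p = 0.14) did not pass in that fit. With each library's GC trend removed, CARS2 alone of the 16 was lower in TSZ+Nec-1s than in DMSO (-0.33, limma adjusted p = 0.0043). TARS2 was read at 296, 328 and 296 in TSZ+Nec-1s, with a log2 fold change of -0.78 ± 0.15 (SE, adjusted p = 0.0012), and EARS2 at 972, 1001 and 958, with a log2 fold change of -0.75 ± 0.10 (SE, adjusted p = 6.4e-05). HARS2 (-0.53), RARS2 (-0.49), NARS2 (-0.46) and LARS2 (-0.41) were the other lower members, and the calls of NARS2 and LARS2 were lost without TSZ c and without TSZ b, TSZ+Nec-1s a or TSZ+Nec-1s b (adjusted p up to 0.062 and 0.06). RARS2 did not pass once each library's GC trend was removed (-0.29, limma adjusted p = 0.18). LARS2 was read at 439.7, 442 and 422 and FARS2 at 142, 157 and 162 in TSZ+Nec-1s, and FARS2 did not pass (-0.35 ± 0.15 SE, adjusted p = 0.077). WARS2 was higher in TSZ (0.54 ± 0.13 SE, adjusted p = 0.0056), a value that went to 0.21 on the scale of total reads and then did not pass.

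Among the 20 cytosolic members 4 were higher and 5 lower in TSZ than in TSZ+Nec-1s, near the shares of all genes tested (22.2% and 19.9%), with a median of -0.09. GARS was read at 2505, 2633 and 2504 in TSZ+Nec-1s, below every TSZ library, with a log2 fold change of 0.40 ± 0.07 (SE, adjusted p = 0.001), and CARS at 919, 954 and 1014, with a log2 fold change of 0.46 ± 0.12 (SE, adjusted p = 0.01). QARS, for glutamine, (0.39) and YARS (0.33) were the other higher members, and their calls were lost without TSZ b, TSZ c or TSZ+Nec-1s b (QARS, adjusted p up to 0.071) and without TSZ b or TSZ+Nec-1s c (YARS, up to 0.057). On the scale of total reads none of these 4 passed, with 0.06 for GARS, 0.12 for CARS, 0.05 for QARS and -0.01 for YARS. On that scale 0 of the 20 were higher and 13 lower, where 1329 of all 11664 genes tested were higher and 4931 lower. The lower members were FARSA, read at 1303, 1378 and 1232 in TSZ+Nec-1s (-0.60 ± 0.15 SE, adjusted p = 0.0079), RARS (-0.59 ± 0.12 SE, adjusted p = 0.0017), FARSB (-0.35 ± 0.12 SE, adjusted p = 0.029), TARS (-0.30 ± 0.08 SE, adjusted p = 0.013) and WARS (-0.24 ± 0.09 SE, adjusted p = 0.046). The calls of FARSA and RARS held without any single library, that of TARS was lost without TSZ b or TSZ+Nec-1s c (adjusted p up to 0.06), and that of FARSB without TSZ b, TSZ c or any TSZ+Nec-1s library (up to 0.14) and with each library's GC trend removed (0.23). That of WARS was lost without any library but DMSO b and DMSO c (up to 0.14), and with a minimum mean of 1. WARS passed at -0.57 on the scale of total reads (limma adjusted p = 7.8e-05) and at -0.25 with each library's GC trend removed (0.0011). WARS was also the 1 member called between TSZ+Nec-1s and TNFα (0.40 ± 0.09 SE, adjusted p = 0.049), where 1.06% of all genes tested were higher and 0.24% lower, and this call was lost without any library but DMSO b, DMSO c and TSZ a (adjusted p 0.071 to 0.21).

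**Figure D5:**
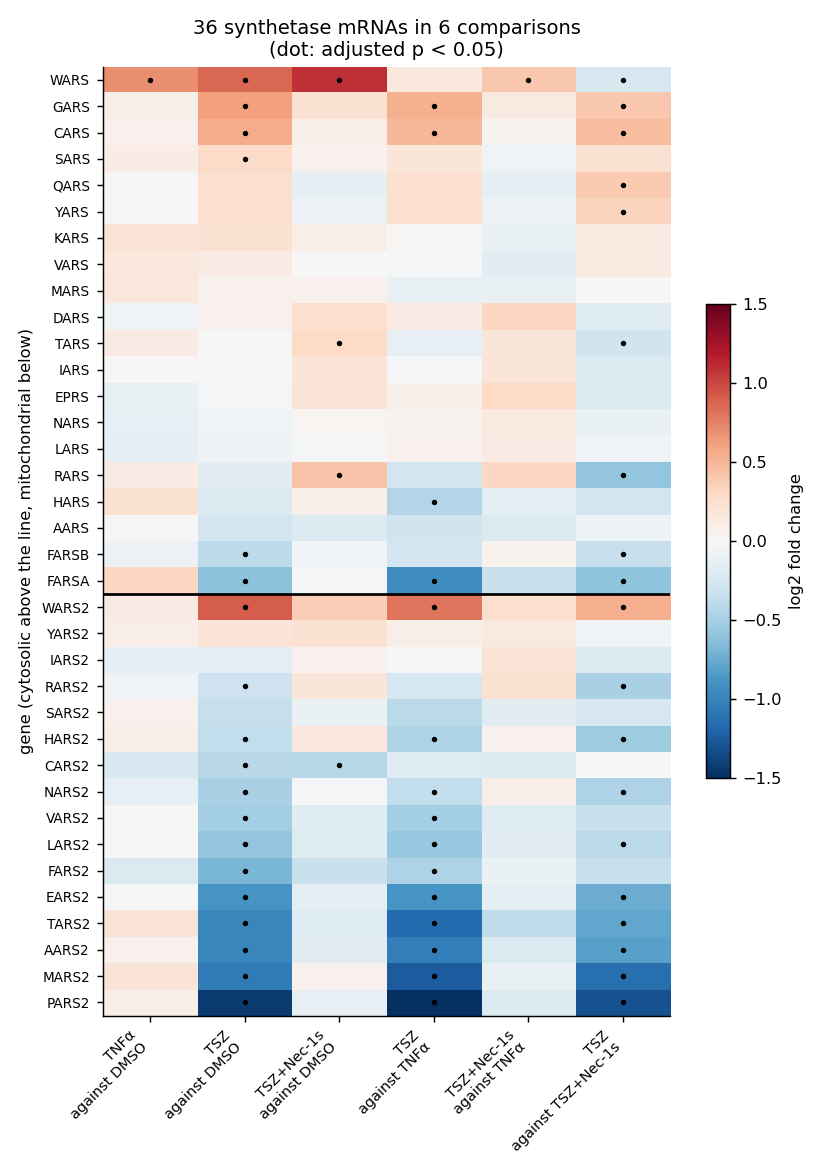
Log2 fold changes of the 36 members in the 6 comparisons, red for higher and blue for lower in the first group named, with a dot where the adjusted p was under 0.05. The 16 mitochondrial rows carry most of the blue in the 3 comparisons that start with TSZ alone (12, 10 and 9 dots for lower members), and WARS carries a dot in 5 of 6 columns.

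Membership in the multisynthetase complex and the structural class of the enzyme gave further ways to sort the members. None of the 8 cytosolic enzymes of the complex was called between TSZ and DMSO, with log2 fold changes from -0.16 to 0.24, and 6 of the 12 others were, 4 higher and 2 lower, where 25.6% of all genes tested were higher and 24.3% lower. By limma's p before adjustment, KARS alone of these was under 0.05 (0.23 ± 0.09 SE, adjusted p = 0.054). The count of 0 depends on the processing. On the scale of total reads EPRS (-0.44), IARS (-0.42), LARS (-0.49), MARS (-0.35) and RARS (-0.57) passed as lower, and KARS (0.19) and QARS (0.21) passed as higher without the GC-deviating libraries, as they did, with MARS (0.12), once each library's GC trend was removed. KARS and QARS also passed without DMSO c or without TSZ a. Of the scaffold proteins AIMP2 fell (-0.45 ± 0.13 SE, adjusted p = 0.011), and AIMP1 (-0.19 ± 0.28 SE, adjusted p = 0.61) and EEF1E1 (-0.25 ± 0.41 SE, adjusted p = 0.64) did not pass. By class, 7 of the 9 mitochondrial class I enzymes were called (1 higher) with a median of -0.42, and 6 of the 7 mitochondrial class II enzymes with a median of -0.68, all 6 lower. Among the cytosolic enzymes 2 of 10 in class I (both higher) and 4 of 10 in class II (2 higher and 2 lower) were called, in either direction smaller shares than among all genes tested.

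Other genes of translation and of the ATF4 response were measured in the same fit. Of 13 measured mitochondrial translation factors and subunits of the amidotransferase that completes glutaminyl-tRNA, 6 were lower and none higher in TSZ than in DMSO, against 24.3% and 25.6% of all genes tested, with a median log2 fold change of -0.40. GATB, an amidotransferase subunit, had a log2 fold change of -0.80 ± 0.18 (SE, adjusted p = 0.0029), MTFMT, which formylates the initiator methionyl-tRNA that MARS2 charges, of -0.78 ± 0.18 (SE, adjusted p = 0.003), GFM2, a ribosome-recycling factor, of -0.60 ± 0.14 (SE, adjusted p = 0.0029), and MTIF2, an initiation factor, of -0.57 ± 0.15 (SE, adjusted p = 0.007). TUFM, the mitochondrial elongation factor that carries charged tRNA to the ribosome, had a log2 fold change of 0.29 ± 0.13 (SE, adjusted p = 0.082), which turned to -0.12 on the scale of total reads. In TSZ+Nec-1s against DMSO none of the 13 was called by limma, and 1, in the lower direction, had an unadjusted p under 0.05. The 3 cytosolic elongation factors that could be solved, EEF1D (0.58), EIF5A (0.53) and EEF1B2 (0.24), were all higher in TSZ than in DMSO (25.6% of all genes tested were), but on the scale of total reads none passed and EEF1B2 turned to -0.17. Of 4 genes for tRNA editing and tRNA ends 1, DTD2, a D-aminoacyl-tRNA deacylase, was called, at -0.83 ± 0.30 (SE, adjusted p = 0.035).

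Genes of the ATF4 response rose in TSZ. Of 17 measured genes of that list 14 were higher and 1 lower between TSZ and DMSO, against 25.6% and 24.3% of all genes tested, with a median log2 fold change of 1.53. ATF4 itself went from 4455 ± 676 to 12793 ± 779 scaled reads (SD, n = 3), a log2 fold change of 1.53 ± 0.11 (SE, adjusted p = 1.3e-07). ATF3, a stress transcription factor, had a log2 fold change of 7.0 ± 0.22 (SE, adjusted p = 8.7e-11), DDIT4, an mTORC1 inhibitor, of 4.71 ± 0.16 (SE, adjusted p = 1.4e-10), CEBPB of 3.48 ± 0.20 (SE, adjusted p = 2.1e-08), CHAC1, which breaks down glutathione, of 2.84 ± 0.22 (SE, adjusted p = 3.5e-07) and DDIT3, which encodes CHOP and overlaps MARS, of 2.62 ± 0.17 (SE, adjusted p = 5.6e-08). PSAT1, an enzyme of serine synthesis, was the lower one (-0.43 ± 0.12 SE, adjusted p = 0.0081). The cytosolic synthetases with an ATF4 element in the strict spelling, AARS (-0.29) and IARS (-0.01), did not pass between TSZ and DMSO in the main fit. GARS, with the relaxed spelling, rose (0.62). AARS passed as lower with each library's GC trend removed (-0.22) and without the GC-deviating libraries (-0.31). On the scale of total reads AARS (-0.70) and IARS (-0.42) both passed as lower. Of 7 measured genes of the eIF2α kinases and phosphatases, PPP1R15B (1.93) and EIF2AK3, which encodes PERK, (1.28) were higher, and EIF2AK4, which encodes the uncharged-tRNA sensor GCN2, (-0.68) and EIF2AK1 (-0.21) were lower. In TSZ+Nec-1s against DMSO EIF2AK4 alone of the 7 was called, also lower (-0.46, limma adjusted p = 0.029), against 5.77% of all genes tested. Between TSZ and TSZ+Nec-1s PPP1R15B (1.69) and EIF2AK3 (0.71) were higher in TSZ, EIF2AK2 was lower (-0.72), and EIF2AK4 did not pass (-0.22). Against TSZ+Nec-1s 13 of the 17 were higher in TSZ and none lower, with a median of 0.73, against 22.2% and 19.9% of all genes tested. Against DMSO, TSZ+Nec-1s raised 5 of the 17 (SLC7A11, CEBPB, ATF3, DDIT4 and ATF5), against 7.06% of all genes tested, and TNFα alone raised 2, CEBPB and ATF5, against 3.04%.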

How the data were processed

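PolyA mRNA of 12 libraries, 3 per group by the sample labels, was sequenced. Reads were aligned by the authors to hg38 (STAR), assigned to genes (HTSeq, intersection-strict, unstranded) and scaled with DESeq. The deposited files are 6 tables, 1 per pair of groups, and the values used from them are the authors' signal, the mean of scaled counts of either group. The other columns hold the authors' mean over both groups, fold change, its log2, p-value and adjusted p-value, and were not used. No column of values per sample was found in them.

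Whole reads per library were solved from the means with Python 3.11.15, numpy 2.4.6 and numba 0.67.0, for means up to 15000. In simulated TSZ means 5822 of 5824 genes were solved, 5822 of them rightly. Depth was 8897157 to 12726325 reads per library, and intervals of counting error alone were not computed, since the spread between libraries was used.

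The main test was limma 3.58.1 in R 4.3.3 on log2 scaled reads (pseudocount 0.5) with voom precision weights, all 4 groups in 1 fit without covariates, on 11664 genes that reached a mean of 10, and p-values were adjusted over all of them (Benjamini-Hochberg). The 94 genes unsolved in a group, among them the most abundant ones, were left out. On simulated data for TSZ against DMSO it called 53.7%, 89.6% and 98.5% of genes changed 1.5-fold, 2-fold and 4-fold, and 7 of 11464 unchanged genes. The simulation changed only 67, 67 and 66 genes, gave all genes the same spread (dispersion 0.0128) and put in no deviation with GC content. Its rates may therefore not hold for the real libraries.

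Members, gene lists and the choice of comparisons were made with earlier results of these data known. Values per library are given for the 12 members with the largest called log2 fold change at a mean of at least 50, for their counterparts in the other compartment, and for CARS, which was chosen after its values were seen. Of the listed symbols 23161 matched GENCODE 44 directly and 1388 under another symbol, and 1936 did not match. Levels per kilobase use the canonical transcript, chosen after the data were seen in place of merged exons, which include retained introns. Promoters were taken from RefSeq.

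Alternatives were filters at means of 1 and 50, scaling to total reads or to the upper quartile, a pseudocount of 2, equal weights with a trend, only the 2 groups compared, removal of each library's GC trend and leaving out each library. Leaving out the 3 libraries that deviate most with GC content in their groups was added after the data were seen.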

Additional observations from a re-analysis of the deposited data

How the results depend on the processing

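The libraries were solved from group means, so depth limits the members with few reads most, and PARS2 rests on as few as 24 reads in a library. Levels are relative to the other mRNAs of a library, and replicate numbers, strand and overlapping genes could not be resolved. No paired analysis was possible because libraries recovered from group means carry no replicate number. The causes of the changes listed here were not tested.

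Scaling to total reads changed the number of members called to 29 (TSZ against DMSO), 2 (TSZ+Nec-1s against DMSO) and 26 (TSZ against TNFα). For TSZ against TSZ+Nec-1s it gave 13 cytosolic and 15 mitochondrial members lower and 0 higher. On that scale the medians of the cytosolic and mitochondrial members moved to -0.38 and -0.91 (TSZ against DMSO), to -0.31 and -0.80 (TSZ against TNFα) and to -0.42 and -0.77 (TSZ against TSZ+Nec-1s). On that scale 8 of 36 members changed sign in TSZ against DMSO, 11 in TSZ against TNFα and 6 in TSZ against TSZ+Nec-1s. Of these, the ones called on either scale were MARS (-0.35), SARS (-0.13) and YARS2 (-0.23) in TSZ against DMSO, KARS (-0.32) and YARS2 (-0.26) in TSZ against TNFα, and MARS (-0.33), YARS (-0.01) and CARS2 (-0.32) in TSZ against TSZ+Nec-1s.

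With only the 2 groups compared in the fit, 224 genes were called for TNFα against DMSO, 961 genes and 1 member for TSZ+Nec-1s against DMSO, and 3139 genes and 8 members for TSZ+Nec-1s against TNFα. For TSZ against DMSO that fit called 3 cytosolic members higher and 1 lower, and 1 mitochondrial member higher and 8 lower. Of all 11664 genes tested, 2305 were higher and 2017 lower. The calls of SARS, FARSB, CARS2, HARS2, RARS2 and VARS2 in TSZ against DMSO were lost in it. Once each library's GC trend had been removed, the counts were 1473 genes and 4 members (TNFα against DMSO), 3104 and 7 (TSZ+Nec-1s against DMSO), 24 members (TSZ against TNFα) and 526 genes (TSZ+Nec-1s against TNFα). Single calls lost there were RARS2 in TSZ against DMSO (-0.33) and against TSZ+Nec-1s (-0.29), GARS in TSZ against TNFα (0.38) and FARSB in TSZ against TSZ+Nec-1s (-0.15). Without the GC-deviating libraries, an alternative added after the data were seen, they were 1288 genes and 2 members (TNFα against DMSO), 5830 and 23 (TSZ+Nec-1s against DMSO), 24 members (TSZ against TNFα), 4805 genes and 21 members (TSZ+Nec-1s against TNFα) and 29 members (TSZ against TSZ+Nec-1s). For TSZ against DMSO, removal of the GC trend gave 8 cytosolic members higher and 3 lower, and 2 mitochondrial higher and 12 lower. Of 11465 genes 3856 were higher and 3527 lower there. Leaving out the GC-deviating libraries gave 7 and 4 cytosolic, and 1 and 13 mitochondrial, with 3760 and 3368 of 11664 genes. WARS, the 1 member called between TSZ+Nec-1s and TNFα, was not called (0 members) with a minimum mean of 1, upper-quartile scaling or equal weights with a trend.

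Leaving out 1 library at a time gave 286 to 586 genes (TNFα against DMSO), 839 to 3904 genes and 1 to 9 members (TSZ+Nec-1s against DMSO), 12 to 23 members (TSZ against TNFα), and 49 to 933 genes and 0 to 1 members (TSZ+Nec-1s against TNFα). For TSZ against DMSO 16 to 20 members were called, 10 to 13 of them mitochondrial. With merged exons in place of canonical transcripts, the ratio of the cytosolic to the mitochondrial median per kilobase went from 4.55 to 4.03 in DMSO and from 6.16 to 6.62 in TSZ.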
